A study of Mus musculus with 10 samples.

Results

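The 10 receptor genes through which growth factors and cytokines act on blood progenitors were examined in lineage-negative (Lin-) mouse bone marrow: Kit, Flt3, Csf1r, Csf2ra, Csf2rb, Csf2rb2, Csf3r, Il3ra, Il6ra and Il6st. They were chosen by name as the receptors for stem cell factor, Flt3 ligand, the colony-stimulating factors, interleukin-3 and interleukin-6, and are 10 of the 55359 genes of the deposited table. All 10 were above the minimum level of a mean of 0.1 FPKM and so were among the 18742 genes tested. FPKM are fragments scaled to the length of a gene and to the depth of the library, so that levels of different genes can be set beside each other. RNA of Lin- cells was sequenced in 5 libraries from Dhx9f/f mice (WT) and 5 from Dhx9f/f;MX1 mice (cKO), with both alleles of the helicase gene Dhx9 floxed in either group. The Cre recombinase of the cKO mice is under the Mx1 promoter, which answers to interferon, is active in many cell types besides blood cells and was induced with the RNA mimic poly(I:C). By the general methods of the study mice were taken a week after the first injection. Whether the WT mice sequenced here were injected, and the age of the mice, are not given in the sources used here, so that poly(I:C) and genotype cannot be told apart. Lin- cells were obtained with a kit that removes cells carrying surface markers of mature lineages. The study's general methods count replicates as individual mice unless noted otherwise. They give no number for the RNA-seq, and the labels do not say that each library is a separate mouse. The p-values measure only the spread between these libraries.

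The libraries held 13789058 to 18821135 fragments, as read from the steps between low FPKM values, and no 2 libraries of a group were alike within sampling noise. Dhx9, the gene targeted in cKO mice, was higher and not lower in the libraries labelled cKO, at 130.82 to 156.49 FPKM against 65.43 to 72.42 in WT (log2 fold change 1.0, standard error 0.0654, adjusted p = 1.39e-05). A rise is not what a knockout label implies, and every direction given here rests on the labels. The study reports lower Dhx9 RNA by qRT-PCR and lower protein by western blot in bone marrow cells of cKO mice, though not in these libraries. Values per gene do not show which exons were read, so the deletion itself could not be checked here. Xist, which is transcribed from an inactive X chromosome, was at 99.19 to 127.76 FPKM in WT 3, WT 4 and WT 5 and at no more than 0.09 FPKM in the other libraries. Ddx3y, of the Y chromosome, was at no more than 0.05 FPKM in WT 3, WT 4 and WT 5 and at 19.66 to 38.53 in the others. By these genes WT 3, WT 4 and WT 5 read as female and the others as male, so sex was not balanced between the labels. The library cKO 1 stood apart by its neutrophil genes, given with the marker genes. Messenger RNA of antigens used for depletion was present in the Lin- libraries, with Ly6c2 of monocytes at a mean of 245 FPKM in WT and 25.8 in cKO. Kit itself, which defines most progenitors among Lin- cells, was detected in all 10 libraries.

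Receptors of these progenitors fall into classes. Kit, Flt3 and Csf1r are receptor tyrosine kinases that dimerise on their ligand. Csf3r is a single-chain cytokine receptor, whereas the receptors for GM-CSF and interleukin-3 pair a specific alpha chain (Csf2ra, Il3ra) with a shared beta chain. In the mouse there are 2 such chains, Csf2rb, shared by GM-CSF, interleukin-3 and interleukin-5, and Csf2rb2, which serves interleukin-3 alone. Il6ra binds interleukin-6 and signals through Il6st (gp130), a chain that many other cytokines share. Cytokine receptors have no kinase of their own and act through JAK kinases and STAT factors. In the marrow, Kit sustains stem cells, mast cells and early red cell precursors, Flt3 early lymphoid and dendritic precursors, and the CSF receptors granulocytes and monocytes.

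All 10 receptors were at lower levels in the libraries labelled cKO, and in each of them the highest cKO library lay below the lowest WT library. Such a separation was seen in 21.6% of the genes tested. With calls made at adjusted p below 0.05 and a change of 2-fold or more, 9 of the 10 (90%) were called lower and 0 higher, where 16.8% of all genes tested were called lower and 4.60% higher. Kit was the receptor not called. Adjusted p alone was below 0.05 for all 10, each of them lower, as for 28.3% of all genes, and the unadjusted p likewise, as for 32.3%. The shares of all genes called depend on the setting, and with a pseudocount of 1 they were 7.93% lower and 1.9% higher, with quantile normalization 12% and 8.44%. The median log2 fold change of the receptors was -2.71, with a range from -4.63 to -0.86, and that of all genes was -0.106. Summed over the receptors, the level was 218 ± 40.9 FPKM in WT and 50.8 ± 16.8 in cKO (SD, n = 5 each). In bulk RNA, fewer cells that carry a receptor and less of its RNA per cell cannot be told apart.

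**Figure D1:**
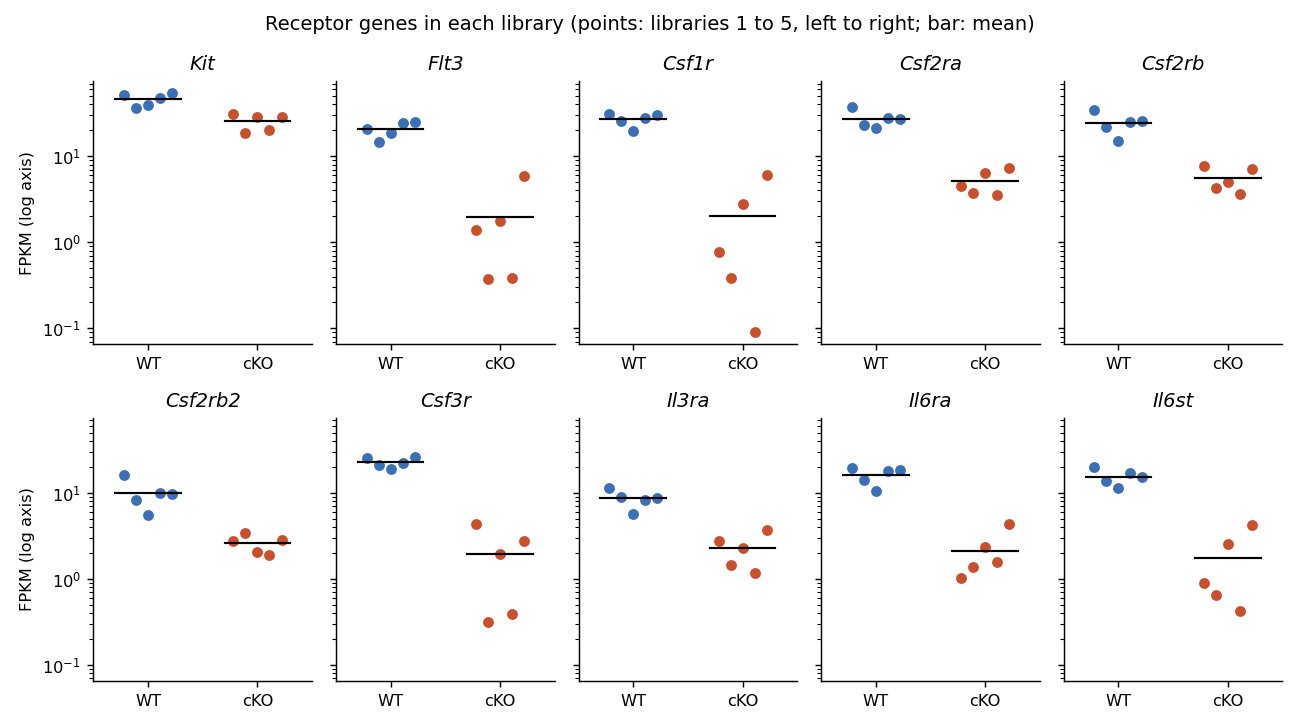
FPKM (log axis) of each of the 10 receptor genes in the 5 WT (blue) and 5 cKO (orange) libraries, 1 point per library in the order 1 to 5, with a bar at the mean. WT and cKO points did not overlap for any receptor, and the cKO points of Csf1r span 0.09 to 6.09 FPKM while those of Kit span 18.73 to 31.11.

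Kit, the receptor for stem cell factor (ENSMUSG00000005672, chromosome 5 of GRCm39 from 75735576 to 75817404, plus strand), was at 51.86, 36.56, 39.04, 47.79 and 54.36 FPKM in WT 1 to 5. In cKO 1 to 5 it was at 31.11, 18.73, 28.37, 20.27 and 28.87 FPKM. The groups did not overlap, but their nearest libraries, WT 2 and cKO 1, were close. The means were 45.9 ± 7.83 and 25.5 ± 5.57 FPKM, that is, -0.86 on the log2 scale (standard error 0.165, adjusted p = 0.0017), or 1.82-fold lower. It passed the test on its p and missed the call on the size of its change. Its change was the smallest of the 10, and 22.1% of the genes tested had a lower log2 fold change.

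Flt3, the receptor for Flt3 ligand on multipotent and lymphoid progenitors (ENSMUSG00000042817, chromosome 5 from 147267551 to 147337483, minus strand), was at 20.89, 14.68, 18.41, 24.52 and 25.29 FPKM in WT. In cKO it was at 1.39, 0.37, 1.79, 0.38 and 5.86 FPKM. Library cKO 5 kept the most and cKO 2 and cKO 4 the least, with about 41 fragments in cKO 2. The coefficient of variation was 21.2% in WT and 116% in cKO. Flt3 was 15.7-fold lower by the fit (log2 fold change -3.97, standard error 0.606, adjusted p = 0.000455). The study shows this gene on a heatmap drawn from these same libraries, so its direction is not independent evidence.

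Csf1r, the receptor for M-CSF and interleukin-34 on monocytes and macrophages (ENSMUSG00000024621, chromosome 18 from 61229714 to 61266535, plus strand), had the largest change of the 10. It was at 30.97, 25.78, 19.6, 27.66 and 30.12 FPKM in WT and at 0.78, 0.38, 2.79, 0.09 and 6.09 FPKM in cKO. The value in cKO 4 corresponds to about 10 fragments, so that its distance from the others is set by few reads. The means were 26.8 ± 4.53 and 2.03 ± 2.51 FPKM, and the fitted log2 fold change was -4.63, with a standard error of 0.782 (adjusted p = 0.000799). Only 0.14% of the genes tested had a lower one.

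Csf3r, the G-CSF receptor of the granulocyte line (ENSMUSG00000028859, chromosome 4 from 125918262 to 125938236, plus strand), was at 25.18, 20.99, 18.91, 22.01 and 26.01 FPKM in WT, with the smallest relative spread of the 10 (coefficient of variation 13%). In cKO it was at 4.32, 0.32, 1.97, 0.39 and 2.77 FPKM. Here cKO 1 was the highest cKO library, whereas cKO 5 was highest for Flt3 and Csf1r, and cKO 1 is also the library with the most RNA of neutrophil marker genes. The fall of Csf3r was 16.1-fold (log2 fold change -4.01, standard error 0.6, adjusted p = 0.000408).

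**Figure D2:**
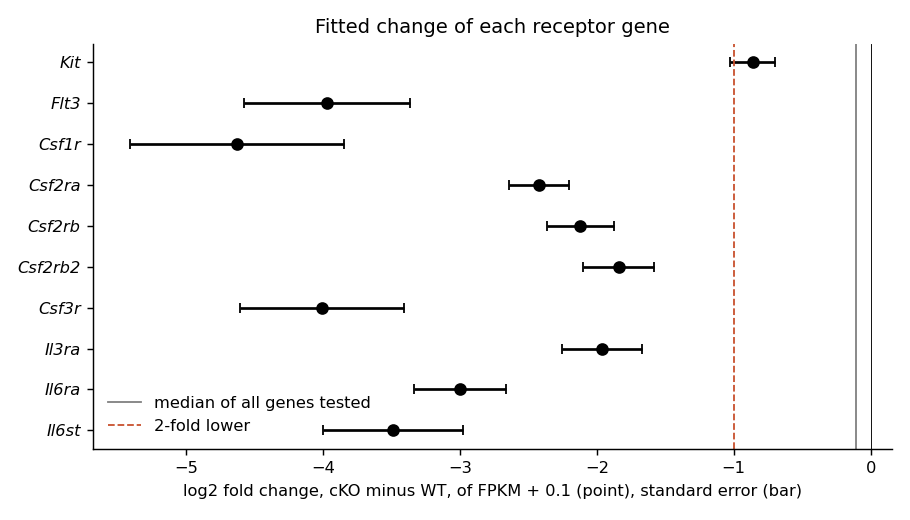
Fitted log2 fold change (cKO minus WT) of each receptor, with its standard error as a horizontal bar, beside the median of all genes tested (grey line at -0.106) and a 2-fold fall (dashed line). Kit at -0.86 is the only receptor to the right of the dashed line, and Csf1r at -4.63 is the farthest to the left.

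The chains of the GM-CSF and interleukin-3 receptors had log2 fold changes nearer to 0 than those of Flt3, Csf1r and Csf3r, a contrast that was not tested. Csf2ra, the alpha chain for GM-CSF (ENSMUSG00000059326, chromosome 19 from 61212395 to 61216892, minus strand), was at 37.22, 22.89, 21.43, 27.61 and 26.79 FPKM in WT and at 4.53, 3.75, 6.34, 3.52 and 7.31 in cKO. The cKO libraries spread over little more than a doubling, and the fit gave a log2 fold change of -2.42 with the smallest adjusted p of the 10 receptors (standard error 0.218, adjusted p = 4.96e-05). Il3ra, the alpha chain for interleukin-3 (ENSMUSG00000068758, chromosome 14 from 8113752 to 8123508, minus strand), was at 11.45, 8.98, 5.76, 8.32 and 8.65 FPKM in WT. In cKO it was at 2.73, 1.47, 2.27, 1.17 and 3.73 FPKM, a log2 fold change of -1.96, with a standard error of 0.292 and an adjusted p of 0.000404. WT 3 was the lowest WT library for Csf2ra and Il3ra, as it was for 8 of the 10 receptors, and WT 1 the highest, as for 7 of the 10.

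Csf2rb (ENSMUSG00000071713) and Csf2rb2 (ENSMUSG00000071714), the beta chains, lie 20030 bp apart on chromosome 15 in opposite directions, from 78209952 to 78238047 on the plus strand and from 78166707 to 78189921 on the minus strand. Their coding sequences, of 2688 and 2634 bp, are identical at 95.2% of the 2628 aligned positions, and the longest identical run is 242 bp. Of the 150-base windows of either transcript, 3.6% occur unchanged in the other, and for the other 8 receptors 0.0% occur in a transcript of another gene. How the authors' counting treated reads that match both is not given in the sources used here, so the split between these genes is uncertain. The stretch of exon 4 in which their coding sequences differ most is given in GRCm39, 90 bases each, with capitals at the 16 positions where they differ, since reads over such bases are what tells the genes apart.
Csf2rb, chr15:78223097-78223186, plus strand: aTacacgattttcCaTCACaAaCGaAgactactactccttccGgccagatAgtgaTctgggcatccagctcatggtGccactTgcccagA
Csf2rb2, chr15:78178545-78178634, minus strand: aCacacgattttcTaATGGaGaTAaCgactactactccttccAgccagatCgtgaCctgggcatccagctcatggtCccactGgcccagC

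Csf2rb was at 34.46, 21.92, 15.14, 24.85 and 25.68 FPKM in WT and at 7.8, 4.33, 5.07, 3.61 and 7.04 in cKO, a log2 fold change of -2.12, with a standard error of 0.247 and an adjusted p of 0.000125. Csf2rb2 was at 16.26, 8.36, 5.49, 9.88 and 9.64 FPKM in WT and at 2.76, 3.45, 2.05, 1.91 and 2.85 in cKO, a log2 fold change of -1.84, with a standard error of 0.261 and an adjusted p of 0.000316. It was the least changed of the 9 receptors called, and its nearest libraries, WT 3 and cKO 2, were 5.49 and 3.45 FPKM. With the FPKM of both genes added as 1 gene, the log2 fold change was -2.04. Since FPKM are divided by length before they are added, and shared reads may have been discarded, this lessens but does not remove the dependence on how reads were split.

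The interleukin-6 receptor lost RNA of both its chains. Il6ra, which binds the cytokine (ENSMUSG00000027947, chromosome 3 from 89771366 to 89820719, minus strand), was at 19.61, 14.26, 10.63, 17.79 and 18.44 FPKM in WT and at 1.02, 1.38, 2.37, 1.56 and 4.34 in cKO. On the log2 scale this was a difference of -3.0 ± 0.335 (standard error), with an adjusted p of 0.000107. Il6st, the signalling chain (ENSMUSG00000021756, chromosome 13 from 112600604 to 112646620, plus strand), was at 19.86, 13.93, 11.27, 16.97 and 15.37 FPKM in WT. In cKO it was at 0.9, 0.66, 2.55, 0.43 and 4.28 FPKM, a log2 fold change of -3.49, with a standard error of 0.511 and an adjusted p of 0.000362. For both chains cKO 5 was the highest and cKO 3 the next highest of the cKO libraries.

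By level, Kit led in all 10 libraries. In WT its mean of 45.9 FPKM was followed by Csf2ra (27.2), Csf1r (26.8), Csf2rb (24.4), Csf3r (22.6), Flt3 (20.8), Il6ra (16.1), Il6st (15.5), Csf2rb2 (9.93) and Il3ra (8.63). Each neighbouring pair in that order overlapped in range across the libraries, although Kit above Csf2ra, Flt3 above Il6ra and Il6st above Csf2rb2 held within each of the 5 WT libraries. Csf2ra was above Csf1r in only 2 of the 5. In cKO Kit at a mean of 25.5 FPKM stood clear of every other receptor, followed by Csf2rb (5.57) and Csf2ra (5.09), which overlapped each other. Csf2ra did not overlap the next, Csf2rb2 (2.60), and from there down to Il6st (1.76) all neighbours overlapped. Kit made up 21.2% ± 1.88 of the summed receptor FPKM in WT and 51.9% ± 7.80 in cKO (SD, n = 5 each), from 39.5% in cKO 5 to 60.8% in cKO 4.

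To compare receptors with each other without the scaling of the library, 6 ratios were taken within each library: specific over shared chain, beta chain over beta chain, Kit over Flt3 and Csf1r over Csf3r. Of these only Kit over Flt3 passed. Kit was 1.95 to 2.48 times as abundant as Flt3 in WT and 4.86 to 42.4 times in cKO, with no overlap. The mean log2 ratio rose from 1.15 ± 0.15 to 4.26 ± 1.27 (SD, n = 5 each), a difference of 3.11 (two-sided exact permutation test, p = 0.00794, adjusted p = 0.0476 over 6 ratios). The p of 0.00794 is the smallest that 5 against 5 libraries allow, and with any library but cKO 3 left out the adjusted p was 0.0952, the smallest that 4 against 5 libraries allow when 1 of 6 ratios reaches it. The difference then lay between 2.82 and 3.61.

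**Figure D3:**
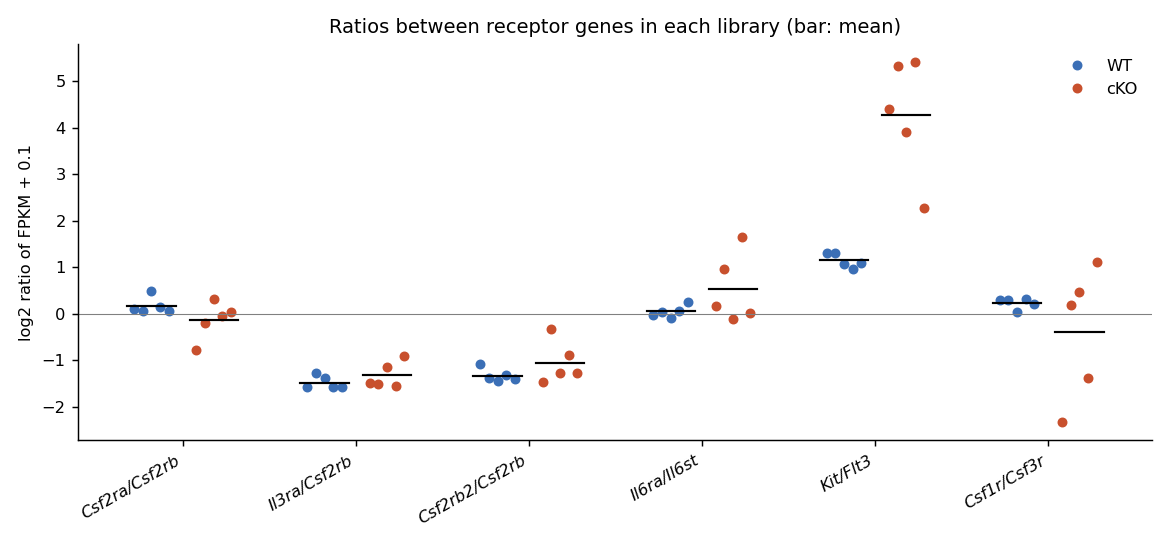
Log2 ratio of FPKM + 0.1 of 6 pairs of receptor genes in each library, WT blue and cKO orange, with a bar at the mean. For Kit over Flt3 all 5 cKO points lie above the WT points, while the groups overlap for the other 5 pairs.

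For the chains of one receptor no difference in proportion passed. Csf2ra over Csf2rb had a mean log2 ratio of 0.18 ± 0.18 in WT and -0.13 ± 0.41 in cKO (exact permutation test, adjusted p = 0.352). Il3ra over Csf2rb was at -1.47 ± 0.14 and -1.31 ± 0.28 (exact permutation test, adjusted p = 0.352). Il6ra over Il6st was at 0.05 ± 0.13 in WT and spread from -0.10 in cKO 3 to 1.65 in cKO 4, with a difference of 0.49 (exact permutation test, adjusted p = 0.352). Csf2rb2 over Csf2rb differed by 0.28 (exact permutation test, adjusted p = 0.352), with cKO 2 at -0.32 and all other libraries between -1.47 and -0.88. Csf1r over Csf3r ran from 0.05 to 0.33 in WT and from -2.33 in cKO 1 to 1.11 in cKO 5 (exact permutation test, adjusted p = 0.413). A proportion that misses the threshold is not shown to be the same in both groups, and the cKO libraries differed widely among themselves.

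Ptprc, the pan-leukocyte antigen CD45 that maturing red cells lose, was itself lower, with a mean of 13.5 ± 2.98 FPKM in WT and 4.11 ± 1.2 in cKO (log2 fold change -1.72, adjusted p = 0.000173). Set against Ptprc within each library, a comparison chosen after the values had been seen, the receptors ran from 0.86 (Kit) to -2.91 (Csf1r) in log2 difference. They are listed by whether they passed the threshold, and no difference between receptors was tested. Kit per Ptprc was higher in cKO, at 2.92 to 3.87 in WT and 5.25 to 6.98 in cKO, a log2 difference of 0.86 (two-sided exact permutation test, adjusted p = 0.0113 over 10 receptors). Csf2rb2, with a difference of -0.12 (exact permutation test, adjusted p = 0.675), and Il3ra, with -0.24 (exact permutation test, adjusted p = 0.123), did not pass. The other 7 fell beyond Ptprc. Csf2rb did so by 0.40 and Csf2ra by 0.71 on the log2 scale (exact permutation test, adjusted p = 0.0198 and 0.0113). For Il6ra, Il6st, Flt3, Csf3r and Csf1r the log2 differences were -1.29, -1.77, -2.25, -2.29 and -2.91, each with an adjusted p of 0.0113 in the exact permutation test.

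**Figure D4:**
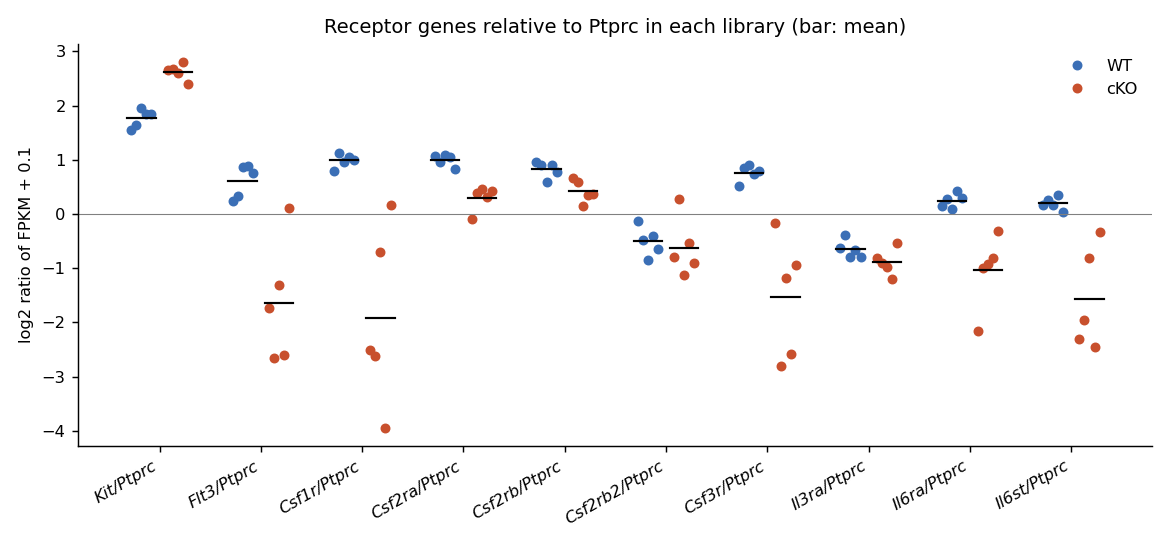
Log2 ratio of FPKM + 0.1 of each receptor to Ptprc in each library, WT blue and cKO orange, with a bar at the mean. Kit is the only receptor whose cKO points lie above its WT points, and the groups overlap for Csf2rb, Csf2rb2 and Il3ra.

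What the receptors share upstream of their starts was described for motifs of 4 blood transcription factor families, over both strands of the 250 bases before the annotated start of the canonical transcript (GENCODE M39, GRCm39) and in 12877 protein-coding genes among those tested. GAGGAA, a core recognised by PU.1, was in 5 of the 10 receptor windows (50%) and in 23.4% of all windows. TTGCNNAA, read by C/EBP factors, was in 2 of 10 and in 8.19% of all. TGTGGT of the RUNX factors and AGATAA of the GATA factors were each in 1 of 10, against 12.4% and 7.7% of all. Such matches are a description of the letters, and with 10 windows the shares are coarse. The windows of Flt3, Csf2ra, Csf3r and Il6st held none of the 4 motifs.

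The beta chain genes share a stretch of promoter as well as coding sequence, and it holds the GAGGAA match on the minus strand of the gene, 200 to 195 bases before the start of Csf2rb and 167 to 162 before that of Csf2rb2. These stretches are given to show that likeness, beside the C/EBP matches and the match of Kit, the receptor with the smallest change. Each is 30 bases in the direction of the gene with the motif in capitals, where TTCCTC is GAGGAA read from the other strand. No matches overlapped. The stretch of Il3ra and the one at bases 200 to 195 of Csf2rb lie partly in exons of other annotated transcripts of those genes.
Csf2rb, chr15:78209978-78210007, plus strand, PU.1 motif: ctctgtgtctgcTTCCTCcagaggagtcag
Csf2rb2, chr15:78190071-78190100, minus strand, PU.1 motif: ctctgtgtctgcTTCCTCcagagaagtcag
Csf2rb, chr15:78210152-78210181, plus strand, C/EBP motif: ggcgaagctgcTTGCGAAAgggcactggca
Il3ra, chr14:8123384-8123413, minus strand, C/EBP motif: atctcaggaagTTGCTCAAtctcgggacca
Kit, chr5:75735412-75735441, plus strand, PU.1 motif: ggagagtgctagGAGGAAgaggatccaggg

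Beyond the difference between the labels, the receptors varied with other genes across libraries. Likeness was taken as Pearson's r of the deviations from the label means of log2(FPKM + 0.1) over the 10 libraries, among 12343 other genes, and is a description in which the points share depth and cell makeup. Kit was most like Chpt1 (r = 0.986), Flt3 most like Cd93 (0.981), a surface protein of early progenitors, and Csf1r most like Tagap (0.997). Csf3r was most like Serpinb1a (0.994), with Ctsg, a protease of granulocyte precursors, next at 0.989. Il3ra was most like Lat2 (0.989), Il6ra like Ap1s2 (0.985) and Il6st like Ticam2 (0.994). Csf2ra was most like Slc27a1 (0.979) and Csf2rb like Slc44a2 (0.976), and the highest value for Csf2rb2 was the lowest of the 10, at 0.928 with Zfp579.

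**Figure D5:**
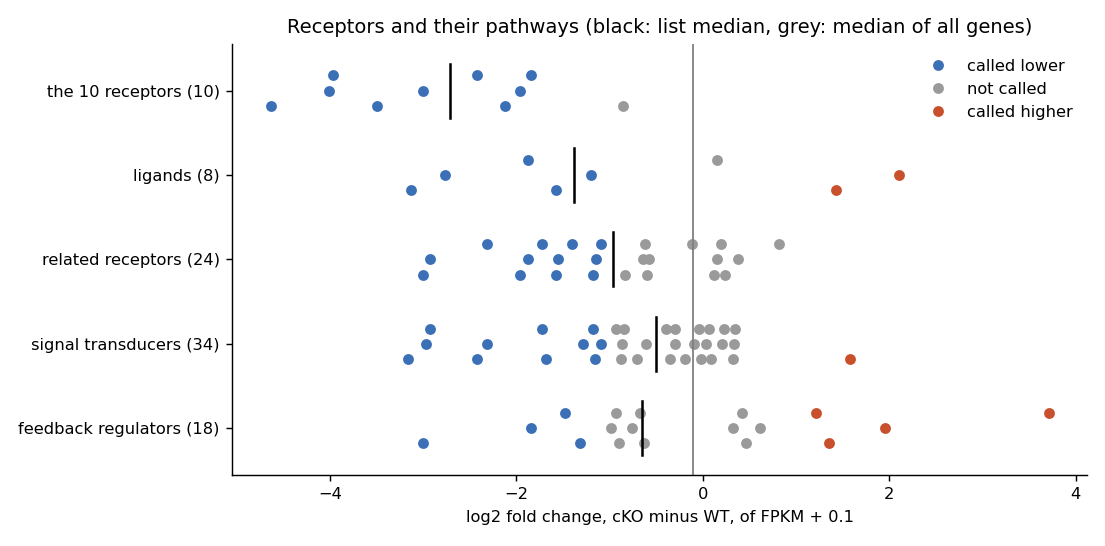
Log2 fold change (cKO minus WT) of the tested genes among the 10 receptors, their ligands, related receptors, signal transducers and feedback regulators, with the number of genes in brackets, colours for the call, a black bar at each list's median and a grey line at the median of all genes. The receptors have their median at -2.71, and genes called higher appear among ligands, transducers and feedback regulators only.

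The ligands of these receptors come largely from stromal, lymphoid or mature myeloid cells, and 8 of 13 were expressed enough to test, of which 5 were called lower (62.5%, against 16.8% of all genes) and 2 higher (25%, against 4.60%), with a median log2 fold change of -1.39. Csf1, the ligand of Csf1r, was at 4.63 to 11.83 FPKM in WT and 0.23 to 1.49 in cKO (log2 fold change -3.13, adjusted p = 0.000255). Clcf1, a cytokine of the gp130 family, fell by 2.77 on the log2 scale (adjusted p = 0.000115) and Il6 by 1.87 (adjusted p = 0.00112). Kitl at 0.324 and 0.08 FPKM and Ctf1 at 0.676 and 0.162 FPKM (means of WT and cKO) were called lower at low levels. Flt3l, the ligand of Flt3, had means of 3.72 and 4.08 FPKM (log2 fold change 0.15, adjusted p = 0.584), and its sign turned to -0.08 among the libraries low in Xist. Osm, oncostatin M, which signals through Il6st paired with Osmr or Lifr, was higher, at 2.63 to 4.33 FPKM in WT and 6.81 to 21.71 in cKO (log2 fold change 2.10, adjusted p = 0.000186). Lif rose from a mean of 0.016 to 0.212 FPKM (log2 fold change 1.43, adjusted p = 0.00146). Il34, Csf2, Csf3 and Il11 were below the minimum level, and Il3 was listed at 0 in all 10 libraries.

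Of 29 related receptors 24 were tested, with 12 called lower (50%, against 16.8% of all genes) and 0 called higher (median log2 fold change -0.96). Unadjusted p was under 0.05 for 15 lower and 1 higher, and the latter was Epor, the erythropoietin receptor and the most abundant of the list. It was at 31.09 to 49.82 FPKM in WT and 59.66 to 80.76 in cKO (log2 fold change 0.82, adjusted p = 0.000456), below the fold needed for a call. Il13ra1, Il21r and Il18r1 changed most, by log2 fold changes of -3.0, -2.93 and -2.31 (adjusted p = 0.00089, 0.000305 and 0.00304). Among genes that share a chain with the receptors, Il5ra, which pairs with Csf2rb, and Il11ra1 and Lifr, which pair with Il6st, were called lower, with log2 fold changes of -1.57, -1.15 and -1.55 (adjusted p = 0.0181, 0.000276 and 0.00461). Il27ra, another partner of Il6st, had means of 2.63 and 1.9 FPKM (adjusted p = 0.19), and Osmr was below the minimum level. Il1rl1, the interleukin-33 receptor, and Il2rg, the common gamma chain, had mean levels of 18.4 and 21.1 FPKM and of 9.64 and 10.8 FPKM in WT and cKO and did not pass (adjusted p = 0.318 and 0.499).

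Of 34 signal transducers 11 were called lower (32.4%) and 1 higher (2.94%), against 16.8% and 4.60% of all genes (median log2 fold change -0.50). Among those with the largest falls were the kinase Fes and the PI3-kinase subunit Pik3r5, both of myeloid cells, with log2 fold changes of -2.93 and -2.97 (adjusted p = 0.00127 and 0.0011). Of the most abundant, Grb2, the adaptor to RAS, had a log2 fold change of -0.30 and the kinase Akt1 one of 0.23 (adjusted p = 0.0403 and 0.00811). The gene called higher, named here after its values were seen, was Gab2, an adaptor downstream of Kit and the beta chain, at 8.77 to 12.67 FPKM in WT and 14.63 to 46.43 in cKO (log2 fold change 1.58, adjusted p = 0.000845).

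Of 18 feedback regulators 4 were called lower and 4 higher (22.2% each), the former near the 16.8% of all genes called lower and the latter beside 4.60% called higher (median log2 fold change -0.65). Cish, a target of STAT5 that is switched on by cytokine receptors, was at 0.46 to 0.91 FPKM in WT and 3.86 to 18.48 in cKO, the largest rise of the list (log2 fold change 3.71, adjusted p = 6.85e-05). Socs2, another STAT5 target, rose by 1.95 on the log2 scale (adjusted p = 0.00061). The other 2 called higher, named after their values were seen, were Socs1 and Spry1, with log2 fold changes of 1.35 and 1.22 (adjusted p = 0.0371 and 0.00332). Dok3, an adaptor of myeloid and B cells, fell by 3.0 on the log2 scale (adjusted p = 0.00331). Of the most abundant, the phosphatases Ptpn6 (SHP-1) and Inpp5d (SHIP1) had log2 fold changes of -0.98 and -0.63 (adjusted p = 0.000664 and 0.000192) and the adaptor Dok1 one of 0.32 (adjusted p = 0.0178), each under the fold for a call. None of the libraries labelled WT reached the cKO level of Cish or Socs2.

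Marker genes of cell types moved in different directions by list. Over all genes tested, 16.8% were called lower and 4.60% higher. All 6 markers of granulocyte-monocyte progenitors were called lower, led in level by Mpo (means 1162 and 191 FPKM), and their sum was 2675 to 3640 FPKM in WT and 145 to 1085 in cKO. Of 10 monocyte and dendritic cell markers, led by Ly6c2, 9 were called lower and their sum was 555 to 868 FPKM against 6.44 to 187. All 5 mast cell and basophil markers, led by Prss34 (622 and 117), were called lower, with sums of 663 to 1325 and 78.5 to 571 FPKM. So were all 6 of megakaryocytes, led by Ppbp (398 and 44.0), with sums of 273 to 1268 and 79.4 to 182. Of 9 stem and progenitor markers 7 were lower, with sums of 118 to 159 FPKM and 41.5 to 115, while the most abundant of them, Cd48, had means of 77.7 and 82.4 (log2 fold change -0.04). Of 13 erythroid markers 8 were higher and 0 lower, led by Car1 (695 and 2573), and their sum was 1720 to 3068 FPKM in WT and 4961 to 8329 in cKO.

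Among the remaining lists, neutrophil markers had 1 of 9 called lower (11.1%, below the 16.8% of all genes), with S100a9 the highest at means of 71.6 and 224 FPKM. Their sum was 145 to 248 FPKM in WT and 14.2 to 1772 in cKO, the latter in cKO 1, whose Csf3r was the highest of cKO. Of 5 tested T and NK cell markers 3 were lower, led by Nkg7 (82.6 and 15.1), with sums of 76.6 to 100 and 7.21 to 26.9 FPKM. B cell markers had 2 of 5 lower, led by Cd79b (9.87 and 1.93), and sums of 10.2 to 15.2 and 0.870 to 6.38 FPKM. Stromal and endothelial markers had 3 of 5 lower and 1 higher, led by Col1a2 (1.17 and 4.51), with sums of 2.25 to 10.5 and 1.63 to 9.06 FPKM. Of the antigens used for depletion and of Ptprc, 3 of 5 tested were lower and 1 higher. No marker of these lists was listed at 0 in all libraries. The part of these cell types in the levels of the receptors was not tested.

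Within cKO, the sums of the receptors, the granulocyte-monocyte progenitor markers and the monocyte and dendritic cell markers had the same libraries at their ends. Single receptors did not all follow, with 6 highest in cKO 5, 3 in cKO 1 and 1 in cKO 2. The lowest value was in cKO 4 for 6, in cKO 2 for 3 and in cKO 1 for 1. Libraries cKO 2 and cKO 4, with the lowest summed receptor FPKM (34.8 and 33.3), had the lowest sums of granulocyte-monocyte progenitor markers (150 and 145) and of monocyte markers (13.8 and 6.44). Library cKO 5, with the highest receptor sum (73.1), had the highest of both (1085 and 187). The summed erythroid markers ran the other way at these ends, with 8329 FPKM in cKO 4, 7674 in cKO 2 and 4961 in cKO 5. The sum of the stem and progenitor markers followed neither order. It was 111 FPKM in both cKO 2 and cKO 4, 89.6 in cKO 5 and lowest in cKO 1, at 41.5. Most of it was Cd48, at 104.01 FPKM in cKO 2, 106.63 in cKO 4, 72.8 in cKO 5 and 29.41 in cKO 1. Cd34 had the same ends as the receptor sum, at 1.05 FPKM in cKO 4, 1.12 in cKO 2 and 6.78 in cKO 5. Ly6a was highest in cKO 3, at 4.34 FPKM, and the markers were not summed without Cd48. Among the libraries low in Xist, WT 1 and WT 2 were above all 5 cKO libraries for every one of the 10 receptors. This follows from the separation of all 5 WT from all 5 cKO libraries given above and is no further support. With 2 libraries against 5 such a separation arises more readily than with 5 against 5, and its share among all genes was not counted. With the fit limited to the libraries low in Xist, 9 of the 10 receptors were called lower, beside 12.2% of all genes.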

How the data were processed

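RNA-seq of Lin- bone marrow cells (5 WT and 5 cKO libraries) was analysed from the deposited table of FPKM per gene, rounded to 2 decimals. Per the labels, the authors used cutadapt 1.9.1, HISAT2 2.0.1, HTSeq 0.6.1 and GRCm39. How FPKM lengths and reads shared by several genes were handled is not given in the sources used here. The columns of the table were mapped to samples by name, with 0 left over.

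FPKM are not counts, so the count test of the study was not run. Instead log2(FPKM + 0.1) was fitted in limma 3.58.1 (R 4.3.3, trended eBayes) for 18742 genes whose mean reached 0.1 FPKM, and two-sided p-values were adjusted by Benjamini-Hochberg across them. A call needed an adjusted p below 0.05 and a 2-fold change or more. Fold changes on this scale understate those of low genes. Ratios were tested by two-sided exact permutation over libraries (scipy 1.17.1). Depth was read from genes with a single transcript, where 96.7% to 97.4% of low values were whole fragments within 0.2. Fragment numbers for named genes use annotated lengths and are approximate. In simulated libraries of 18132 genes, 159 of 200 with a true log2 change of 2 were recovered (79.5%), with 7 false calls and 0 of wrong sign.

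The receptors, lists and tests were chosen with earlier results of these data known. Named were the receptors, Dhx9, Xist and Ddx3y, the ligands and chain partners, and the genes most like each receptor. From each pathway list the 3 largest changes and 3 highest levels were named, and from each marker list the gene leading it by level. A few genes that this rule names are not reported here. Coding sequences were aligned with mafft. Alternatives were other pseudocounts, filters, scalings, no trend, a replicate block, an Xist covariate, libraries left out, and, chosen after seeing the data, ratios to Ptprc and the same alternatives for the pathway lists.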

Additional observations from a re-analysis of the deposited data

Results flagged for a closer look

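Of 144 groups of 5 values examined with Dixon's test, 9 held a library far from the other 4. About 1 in 20 would by chance, and the share seen was near that. Among the receptors, Flt3 was at 5.86 FPKM in cKO 5, with the next cKO library at 1.79. Such a library was also seen for 2 ratios, Csf2ra over Csf2rb at a log2 ratio of 0.5 in WT 3 (next 0.15) and Csf2ra over Ptprc at -0.1 in cKO 1 (next 0.31).

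Library cKO 1 was also apart in Flt3l (5.65 FPKM, next 4.01), Socs2 (0.58, next 1.13) and the sum of neutrophil markers (1772, next 367). In WT, Osm was at 4.33 FPKM in WT 2 (next 2.96) and the sum of mast cell and basophil markers at 663 in WT 3 (next 1207). Lif was at 0.06 FPKM in WT 2 (next 0.01), close to the rounding of FPKM to 2 decimals. Cell makeup, handling and chance as sources of these values were not tested.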

How the results depend on the processing

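The counts of 9 receptors called lower and 0 higher were the same under all alternatives run, except that adjusted p alone adds Kit (10 lower, beside 28.3% of all genes). Under the other alternatives 7.93% (pseudocount of 1) to 17.4% (without cKO 1) of all genes were called lower. Leaving out each library left the count lower between 9 and 9 and higher between 0 and 0. Csf1r ranged from a log2 fold change of -5.26 to -3.55 and Kit from -0.94 to -0.76. Quantile normalization moved the median of all genes from -0.106 to 0.099 and left 9 receptors called lower. With a pseudocount of 1 the median of the receptors was -2.37.

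With the replicate block 9 receptors were called lower and 0 ratios passed, since 5 pairs cannot reach the threshold (Kit over Flt3, adjusted p = 0.188). The correlation of same-numbered libraries ran from -0.010 to 0.117, and 3 of 5 WT libraries were most like the cKO library of their number. Whether the numbers pair the libraries was not tested. The count of ratios passing (1) was 2 with a pseudocount of 1, 0 among libraries low in Xist, where 2 libraries stand against 5 and none can pass, and 0 to 2 with a library left out. Relative to Ptprc, 7 lower and 1 higher became 0 and 0 among libraries low in Xist, where the smallest p is 0.0952 and no ratio can pass. The differences there were 1.03 for Kit (0.86 with all libraries), -2.89 for Csf1r (-2.91) and -1.79 for Il6st (-1.77). Csf2rb2 over Ptprc ranged from -0.34 without cKO 2 to 0.01 without cKO 3.

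Of the pathway list genes 32 were called lower and 7 higher. By adjusted p alone these were 49 and 15. With a pseudocount of 1, 3 were called higher, and with a mean of at least 1 FPKM, 4. The sign turned for Flt3l (-0.08 with the Xist covariate and -0.08 among libraries low in Xist). Xist itself turned to 0.02 when it was the covariate. Depth limits the lowest values, such as Csf1r in cKO 4 at about 10 fragments. The causes were not tested.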
